A study of Mus musculus with 12 samples.

Results

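The genes described here encode calponins (Cnn1, Cnn2 and Cnn3), caldesmon (Cald1), transgelins (Tagln and Tagln2), smoothelin (Smtn), myosin light chain kinase (Mylk), the actin-bundling protein synaptopodin 2 (Synpo2) and myocardin (Myocd), the transcriptional coactivator that drives many contractile genes. They were chosen by name, 10 of the 46983 gene symbols in a table of nuclear RNA counts from adult mouse cardiomyocytes. All 10 had counts in every library and all 10 passed the filter on low counts. The control libraries came from tamoxifen-treated adult mice that carry Myh6-MCM, a tamoxifen-inducible Cre recombinase under the Myh6 promoter, which is active in heart muscle cells. The YAP5SA libraries came from adult mice that carry the Yap5SA transgene (Yap5SA+/tg) on top of Myh6-MCM and received tamoxifen too, so Cre and tamoxifen are common to both groups. YAP5SA is a form of the coactivator YAP with alanine in place of the serines through which Hippo kinases restrain it. Nuclei were enriched through PCM1, a centriolar satellite protein on cardiomyocyte nuclei, and each group had 2 libraries. The labels do not say how many animals went into a library.

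In smooth muscle, calponin, caldesmon and transgelin sit on actin filaments and tune how actin meets myosin, while myosin light chain kinase switches the motor on by phosphorylating its light chain. Many of their genes are read out by SRF, a transcription factor that binds the CArG box and works with myocardin or with the related coactivators MRTF-A and MRTF-B, which respond to the state of actin. Heart muscle cells use myocardin as well, carry a different set of thin-filament regulators when mature, and express smooth muscle contractile genes in the embryo. YAP acts on DNA through TEAD factors, which bind the MCAT motif.

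The start regions of the calponin genes and of Cald1 are shown because these 4 genes had the largest absolute log2 fold changes of the 10. Each run is written 5′ to 3′ on the strand of the gene and ends where the first annotated exon begins, so no untranslated region is included. They are RefSeq windows of the GRCm38.p6 assembly (mm10), all on the plus strand. Capitals mark a CArG box in Cnn2 and, in Cald1, the MCAT core CATTCC read on the other strand.
Cnn1, chr9:22099003-22099215: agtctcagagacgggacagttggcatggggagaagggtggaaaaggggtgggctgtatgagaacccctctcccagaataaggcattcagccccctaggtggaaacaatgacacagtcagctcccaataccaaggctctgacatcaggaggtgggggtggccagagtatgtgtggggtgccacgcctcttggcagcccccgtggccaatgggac
Cnn2, chr10:79988350-79988583: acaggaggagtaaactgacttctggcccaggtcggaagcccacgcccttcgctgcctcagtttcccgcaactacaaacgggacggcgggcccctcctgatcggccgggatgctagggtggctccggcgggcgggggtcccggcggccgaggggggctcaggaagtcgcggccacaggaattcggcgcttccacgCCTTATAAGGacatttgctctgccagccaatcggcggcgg
Cnn3, chr3:121426291-121426496: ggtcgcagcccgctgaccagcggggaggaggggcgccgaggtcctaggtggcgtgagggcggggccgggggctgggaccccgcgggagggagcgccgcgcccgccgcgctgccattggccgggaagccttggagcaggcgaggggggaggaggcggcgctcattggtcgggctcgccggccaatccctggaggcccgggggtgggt
Cald1, first start, chr6:34598254-34598499: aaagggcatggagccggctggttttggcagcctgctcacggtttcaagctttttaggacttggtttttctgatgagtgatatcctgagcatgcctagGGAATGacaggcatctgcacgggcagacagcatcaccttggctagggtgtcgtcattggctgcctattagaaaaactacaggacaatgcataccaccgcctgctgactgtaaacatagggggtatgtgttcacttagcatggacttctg

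The CArG box of Cnn2 begins 56 bases before the RefSeq start and reads CCTTATAAGG. Windows of 300 bases (250 before to 50 after the start) were read for 8 of the 10 genes, all but Tagln and Myocd, and both strands were searched. A CArG box was found in 1 of the 8 genes and in 1.64% of all 32544 windows. The core CATTCC was found in 4 of the 8 genes, Cald1, Tagln2, Smtn and Mylk, and in 14.6% of all windows. In Cald1 it begins 153 bases before the first of 2 starts, and Tagln2 holds a pair of copies, 118 and 80 bases before the start. The motif TGANTCA, bound by AP-1, was found in Cald1 and Mylk (2 of the 8, 7.79% of all windows), and the GC box GGGCGG in 6 of the 8 (35.9% of all windows). No matches overlapped each other, and a match is a run of letters in this window only. The core CATTCC stood in 2 genes whose YAP5SA libraries both lay above the control libraries (Cald1 and Tagln2) and in 2 whose YAP5SA libraries both lay under them (Smtn and Mylk).

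Library totals ran from 7850661 to 15012122 counts. The control pair was less alike (Pearson's r of 0.941 across genes, which are not independent replicates) than the YAP5SA pair (0.990). Both pairs differed by more than sampling noise, with a mean chi-square per gene of 54.6 and 13.7, so no library was counted as a duplicate. Defining cardiomyocyte genes were present in all 4 libraries, with a lowest count of 1818 over 10 markers. Their summed level was 32932 and 67051 CPM in control replicates 1 and 2 and 23612 and 24779.5 CPM in YAP5SA replicates 1 and 2. Ttn alone held 19901 and 48149 CPM of this in control and 15501 and 16678 CPM in YAP5SA. The log2 fold change was below 0 for 9 of the 10 markers and above 0 for 1, with a median of -0.94. CPM are counts scaled to a common library total, here with TMM factors. In bulk samples, fewer cells of a type and less RNA per cell cannot be told apart.

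Among the 10 genes, Cnn2 and Cald1 rose in YAP5SA and none fell past the threshold, an adjusted p of 0.05 in the quasi-likelihood F test of edgeR over all 17715 tested genes. Across all tested genes 3.12% rose and 0.999% fell in the same test, 4.12% in either direction. At an unadjusted p under 0.05, 4 of the 10 were higher and 3 were lower, against 12.7% and 10.9% of all tested genes. DESeq2 called 4 higher and 0 lower, and limma-voom 2 higher and 0 lower. DESeq2 was run without the filter on low counts and called 5.22% of 30546 genes. limma-voom called 4.02% of the 17715 tested genes, so these 2 shares have unlike bases. The median log2 fold change of the 10 was -0.17, against -0.06 over all tested genes, with 5 genes above 0 and 5 below. In 4 of the 10 both YAP5SA libraries lay above both control libraries and in another 4 both lay below. Over all tested genes these shares were 28.1% and 28.3%.

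**Figure D1:**
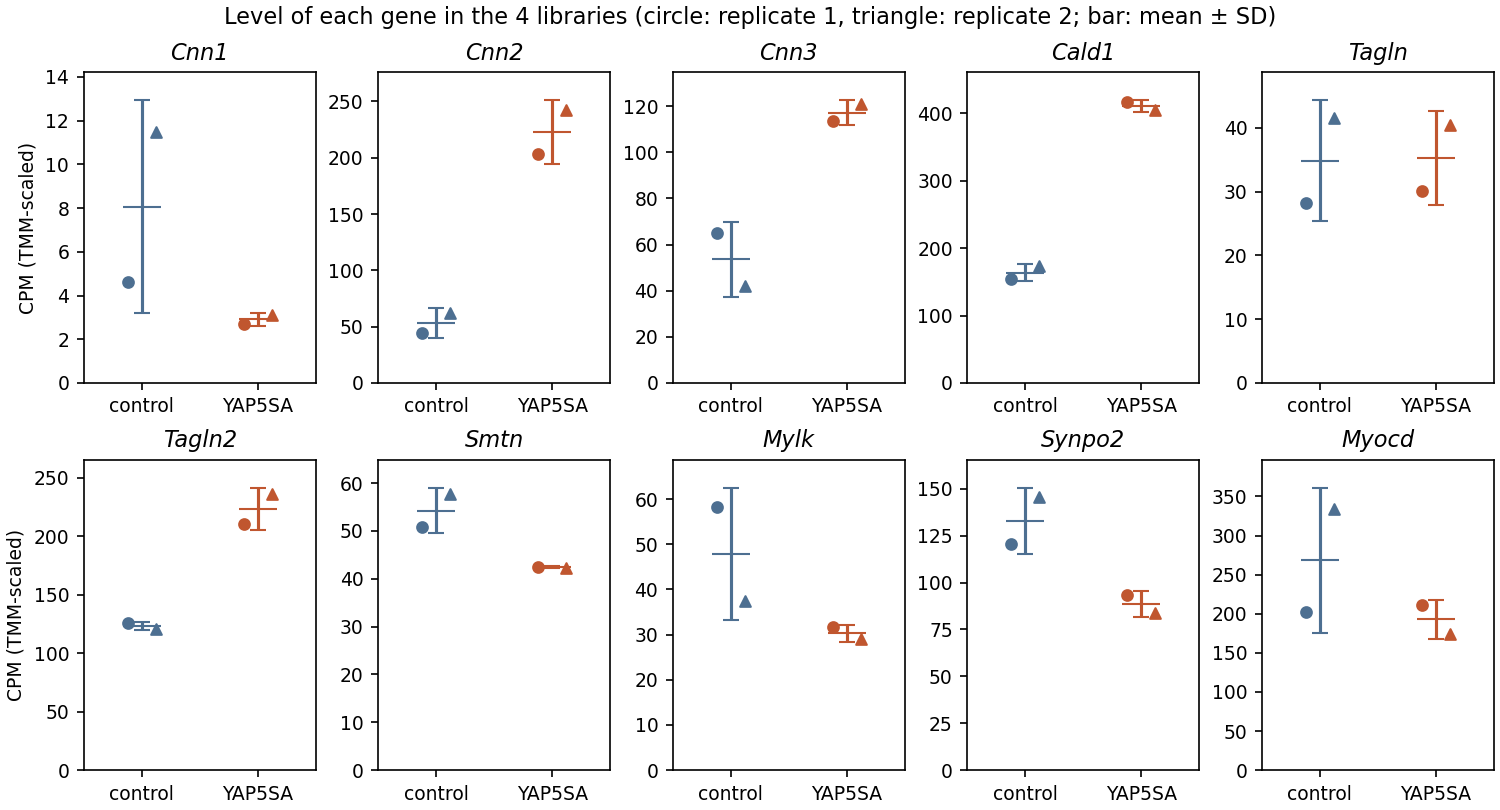
Level in CPM (TMM-scaled, linear axis from 0) of each gene in the control and YAP5SA libraries, with replicate 1 as a circle, replicate 2 as a triangle and the mean ± SD of the 2 libraries as a bar. Cnn2, Cnn3, Cald1 and Tagln2 lie higher in both YAP5SA libraries, Cnn1, Smtn, Mylk and Synpo2 lie lower, and the groups overlap for Tagln and Myocd.

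Calponins are actin-binding proteins that restrain the myosin motor and stabilise filaments. Calponin 2 (Cnn2, chromosome 10, 79988584 to 79996062, mm10, plus strand) is found in many cells that are not smooth muscle, macrophages and fibroblasts among them. Control libraries held 44.0 and 62.5 CPM of Cnn2, and YAP5SA libraries 203 and 243 CPM. Both YAP5SA values lay far above the higher control value. The mean went from 53.3 ± 13.1 to 223 ± 28.05 CPM (SD, n = 2), a 4.19-fold rise. On the log2 scale it was 2.07 (SE 0.24, adjusted p = 0.0278). Of the 8 genes whose windows were read, which leave out Tagln and Myocd, Cnn2 alone held a CArG box. The part of this box in the rise was not tested.

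Cnn3 encodes acidic calponin, which is found in many non-muscle cells and in brain (chromosome 3, 121426497 to 121458207, plus strand). It measured 65.0 and 42.2 CPM in control and 114 and 121 CPM in YAP5SA, and the groups did not overlap. The log2 fold change was 1.13 (SE 0.24), and the adjusted p was 0.0683 with edgeR, short of a call, and 0.00381 with DESeq2, which called it. Exons of Gm42928 on the other strand overlap 538 of its 3037 exon bases, and that gene had 20 and 11 counts in control and 109 and 87 in YAP5SA. No source used here gives the strand setting of the counting, so reads of the overlapping bases cannot be told apart.

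Cnn1 encodes basic calponin, the smooth muscle form (chromosome 9, 22099216 to 22109630, plus strand). It had 51 and 87 counts in the control libraries and 40 and 41 in the deeper YAP5SA libraries. These are 4.62 and 11.5 CPM in control and 2.70 and 3.11 CPM in YAP5SA, so both YAP5SA libraries were lower. Exact 95% Poisson intervals, which cover counting error only, ran from 3.44 to 6.07 CPM in control replicate 1, from 9.21 to 14.2 in control replicate 2, from 1.93 to 3.67 in YAP5SA replicate 1 and from 2.23 to 4.22 in YAP5SA replicate 2. The interval of control replicate 1 overlaps those of both YAP5SA libraries, while that of control replicate 2 lies above all others. The log2 fold change was -1.45 (SE 0.50, adjusted p = 0.163). It was -0.63 without control replicate 2 and -1.98 without control replicate 1.

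As shares of the summed calponin counts, which do not depend on library scaling, Cnn1 was lower and Cnn2 higher in both YAP5SA libraries than in either control library. Cnn1 was 4.06% of 1255 calponin counts in control replicate 1 (95% exact Clopper-Pearson interval 3.04% to 5.31%) and 9.90% of 879 in control replicate 2 (8.004% to 12.1%). In the YAP5SA libraries it was 0.844% of 4737 (0.604% to 1.15%) and 0.849% of 4829 (0.61% to 1.15%). Cnn2 was 38.7% and 53.8% in control and 63.6% and 66.2% in YAP5SA. Cnn3 was 57.2% and 36.3% in control and 35.6% and 33.0% in YAP5SA, so that it held the largest share in control replicate 1 and Cnn2 did in the other 3 libraries. The share of one calponin gene also falls where the counts of another rise, as those of Cnn2 did. With 2 libraries a group no exact permutation test of a share can reach 0.05, and none was run.

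**Figure D2:**
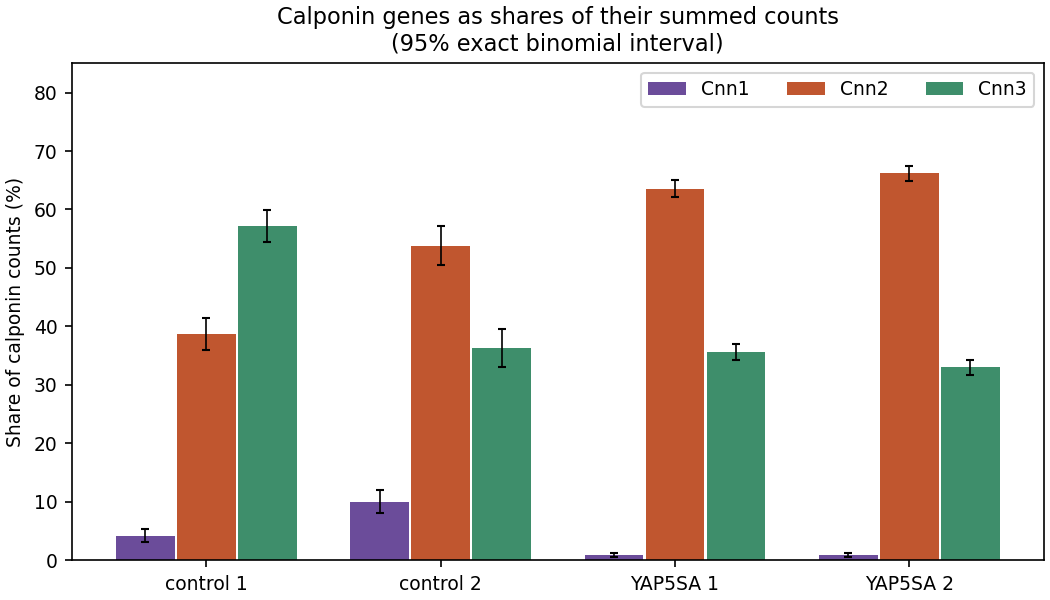
Share of the summed counts of Cnn1, Cnn2 and Cnn3 (percent, linear axis from 0) held by each gene in each of the 4 libraries, with 95% exact binomial intervals that cover counting error only. The Cnn1 bar stands at 4.06% and 9.90% in the control libraries and at 0.844% and 0.849% in the YAP5SA libraries, and the Cnn2 bar at 63.6% and 66.2% in the latter.

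Caldesmon binds actin, tropomyosin and myosin and holds back the motor. Its gene gives a smooth muscle form and a shorter form of other cells by splicing, which counts per gene cannot tell apart. Cald1 (chromosome 6, 34598500 to 34775473, plus strand) measured 154 and 173 CPM in control and 417 and 405 CPM in YAP5SA. The groups lay far apart and the libraries within each lay close together. The mean went from 164 ± 13.1 to 411 ± 8.41 CPM (SD, n = 2), a 2.51-fold rise. On the log2 scale it was 1.33 (SE 0.18, adjusted p = 0.0322). The calls of both Cald1 and Cnn2 were lost when either YAP5SA library was left out. In those fits the log2 fold changes were 1.33 and 1.37 for Cald1 (adjusted p = 0.256 and 0.365) and 2.21 and 1.95 for Cnn2 (adjusted p = 0.0650 and 0.176). Of all tested genes only 0.388% and 0.143% were called there, since the spread was then taken from the control pair alone.

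The transgelins are small relatives of the calponins that bundle actin. Transgelin 2 (Tagln2, chromosome 1, 172500047 to 172507380, plus strand) is the form of non-muscle cells, lymphocytes among them. Tagln2 measured 126 and 121 CPM in control and 211 and 236 CPM in YAP5SA, with no overlap. The log2 fold change was 0.86 (SE 0.17), and the adjusted p was 0.0567 with edgeR and 0.00611 with DESeq2, so only DESeq2 called it. Transgelin (Tagln, also called SM22 alpha, chromosome 9, 45929619 to 45936058, minus strand) is a classic SRF and myocardin target of smooth muscle and of the embryonic heart. Tagln measured 28.2 and 41.5 CPM in control and 30.1 and 40.4 CPM in YAP5SA, so the YAP5SA libraries lay inside the range of the control libraries. Its log2 fold change was 0.02 (SE 0.26, adjusted p = 0.976). Exons on the other strand overlap Tagln, 1241 of its 1988 exon bases for Gm48529 and 108 for Pcsk7, which had 350 and 256 counts in control and 418 and 356 in YAP5SA.

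Smoothelin marks contractile smooth muscle and binds actin filaments. Smtn (chromosome 11, 3517523 to 3540612, minus strand) measured 50.9 and 57.6 CPM in control and 42.5 and 42.3 CPM in YAP5SA. Both YAP5SA libraries were lower than both control libraries, and the difference did not pass (log2 fold change -0.35, SE 0.16, adjusted p = 0.262). Exons of Gm11946 on the other strand overlap 714 of its 4380 exon bases, with 56 and 28 counts in control and 37 and 28 in YAP5SA.

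Myosin light chain kinase of smooth muscle and non-muscle cells is the product of Mylk (chromosome 16, 34745210 to 35002420, plus strand), whose other starts give a long non-muscle kinase and the short protein telokin. Counts per gene cannot tell these products apart. Mylk measured 58.2 and 37.5 CPM in control and 31.6 and 29.0 CPM in YAP5SA, with control replicate 1 well above the other 3 libraries. The log2 fold change was -0.66 (SE 0.25, adjusted p = 0.192), and it was -0.30 without control replicate 1 and -0.90 without control replicate 2. Exons of E130310I04Rik and Gm21691 on the other strand overlap 548 and 224 of its 11263 exon bases.

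Synaptopodin 2, or myopodin, bundles actin at the Z-disc of heart and skeletal muscle and is also made in smooth muscle. Synpo2 (chromosome 3, 123076519 to 123236149, minus strand) measured 120.5 and 145 CPM in control and 93.6 and 83.7 CPM in YAP5SA. The groups did not overlap, and the log2 fold change of -0.58 (SE 0.18) had an adjusted p of 0.135. Without control replicate 2 it was -0.41 and without control replicate 1 it was -0.71.

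Myocardin, the coactivator of SRF in heart and smooth muscle, was one of the better-covered genes, with 2239 and 2527 counts in control and 3128 and 2301 in YAP5SA. Myocd (chromosome 11, 65176561 to 65269989, minus strand) measured 203 and 334 CPM in control and 211 and 175 CPM in YAP5SA. The level of YAP5SA replicate 1 lay between the control libraries, so the groups overlapped. The log2 fold change was -0.48 (SE 0.29, adjusted p = 0.365), -0.04 without control replicate 2 and -0.78 without control replicate 1. In control replicate 2, 7 of the 10 genes stood above control replicate 1, namely Cnn1, Cnn2, Cald1, Tagln, Smtn, Synpo2 and Myocd. Over all tested genes 8380 of 17715 did. Control replicate 2 is also the control library with the larger sum of cardiomyocyte markers. All 10 of those markers were higher there than in control replicate 1, and the part of this in the fold changes was not tested.

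**Figure D3:**
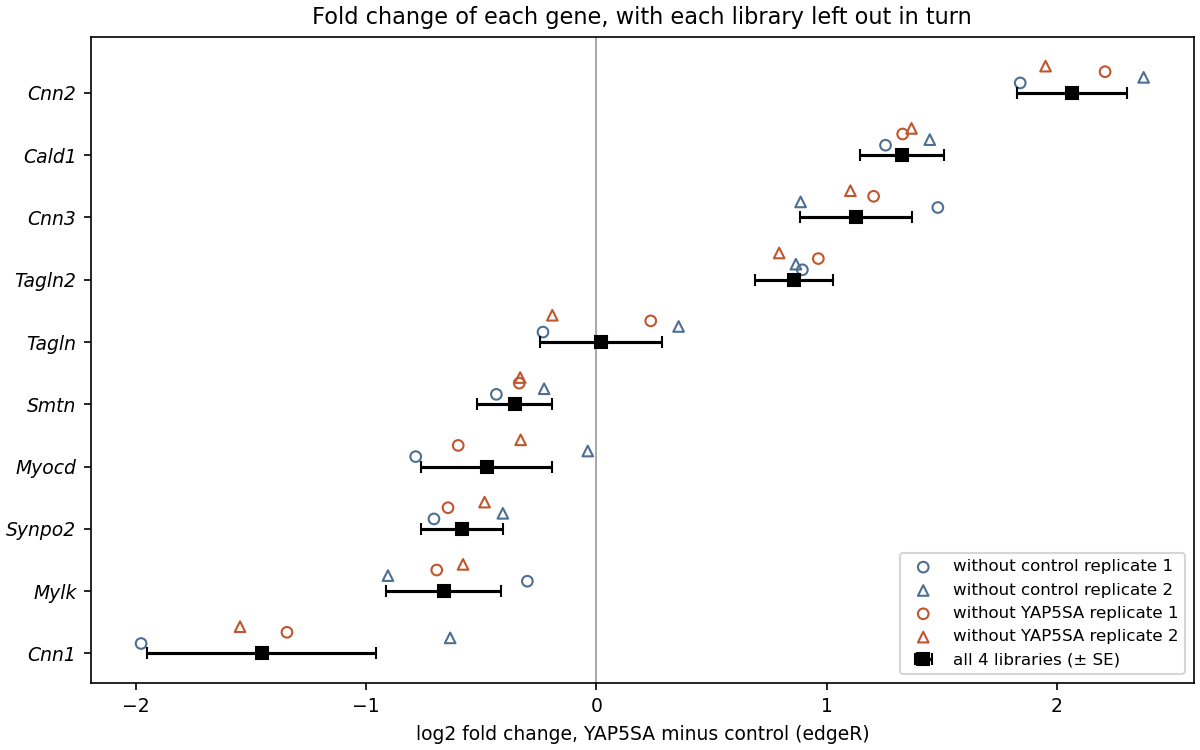
Log2 fold change (YAP5SA minus control, edgeR, linear axis) of each gene with all 4 libraries (square, ± SE) and with each library left out in turn (open symbols, blue for a control and orange for a YAP5SA library). Cnn2, Cald1, Cnn3 and Tagln2 stay above 0 and Cnn1, Mylk, Synpo2, Smtn and Myocd below 0 in all 4 such fits, while Tagln lies on both sides.

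Levels can be compared between genes only per length. In CPM per kilobase of exon, Tagln2 stood highest in both groups, at 59.2 ± 1.66 in control and 107 ± 8.67 in YAP5SA (SD, n = 2), and Cnn1 stood lowest, at 2.95 ± 1.78 and 1.06 ± 0.108. Myocd was the next highest in control (41.8 ± 14.4 CPM per kilobase) and in YAP5SA (30.0 ± 3.97) stood below Tagln2, Cnn2, Cnn3 and Cald1. Cnn2 went from 21.7 ± 5.32 to 90.6 ± 11.4 CPM per kilobase. In control the libraries of neighbours in this order overlapped from Cnn2 through Cnn3, Tagln and Cald1 to Smtn, and again between Mylk and Cnn1, so these are not separated beyond their spread. In YAP5SA no neighbours overlapped. Exon lengths come from GENCODE M21, and no source used here says whether intronic reads of this nuclear RNA were counted.

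Patterns like those of Cnn1 and Myocd were sought over the 4 libraries among 11057 other genes with a mean of at least 5 CPM, by the Euclidean distance of log2 CPM centred on each gene's mean. Nearest to Cnn1 were Tfrc, which encodes the transferrin receptor (distance 0.12), Lrp8 (0.13) and Ip6k3 (0.15). Tfrc measured 102 and 253 CPM in control and 55.5 and 67.4 CPM in YAP5SA. Nearest to Myocd were Txndc11 (0.05), Ptbp2, which encodes a splicing regulator (0.06), and Lyrm1 (0.06). With 4 libraries such a likeness describes the libraries only.

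The partners of these genes were read from lists chosen with earlier results of these data known. Of 18 SRF cofactors and related regulators, all tested, 0 passed in either direction with edgeR. At an unadjusted p under 0.05, 2 were higher and 3 lower, against 12.7% and 10.9% of all tested genes. DESeq2 called 1 higher and 1 lower and limma-voom 0. Their median log2 fold change was -0.08, against -0.06 over all tested genes. Srf itself, named here although it did not pass, measured 82.7 and 90.7 CPM in control and 81.3 and 95.2 CPM in YAP5SA (log2 fold change 0.03, SE 0.17, adjusted p = 0.941). The MRTF genes, also named after their values were seen, did not pass either. Mkl1, which encodes MRTF-A, measured 21.3 and 22.7 CPM in control and 35.1 and 34.2 CPM in YAP5SA (log2 fold change 0.66, SE 0.17, adjusted p = 0.0930). Mkl2, which encodes MRTF-B, measured 156 and 88.3 CPM in control and 75.9 and 72.7 CPM in YAP5SA (log2 fold change -0.72, SE 0.29, adjusted p = 0.215). Its log2 fold change was -0.24 without control replicate 1 and -1.03 without control replicate 2.

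Of 30 further SRF and myocardin targets of smooth muscle, 28 were tested, 2 rose and 1 fell, with a median log2 fold change of -0.06. Acta2, the smooth muscle alpha-actin gene, measured 158 and 97.5 CPM in control and 712 and 917 CPM in YAP5SA. Its mean went from 128 ± 42.6 to 815 ± 145 CPM (SD, n = 2), a rise of 2.67 on the log2 scale (SE 0.32, adjusted p = 0.0284). Mrvi1, which encodes a target of cyclic GMP-dependent kinase in smooth muscle, measured 15.2 and 13.2 CPM in control and 33.0 and 29.3 CPM in YAP5SA (log2 fold change 1.13, SE 0.19, adjusted p = 0.0442). Des, which encodes the muscle intermediate filament desmin, measured 2304 and 2647 CPM in control and 745 and 738 CPM in YAP5SA (log2 fold change -1.74, SE 0.27, adjusted p = 0.0394). Without YAP5SA replicate 2 none of the 3 passed, and without YAP5SA replicate 1 Acta2 alone did. In this list 4 genes rose and 14 fell when control replicate 1 was left out, and 12 rose and 5 fell when control replicate 2 was, in fits that called 36.2% and 38.3% of all genes tested.

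Among 26 regulators of myosin light chain phosphorylation, such as the myosin phosphatase subunits, 0 passed in either direction with edgeR. At an unadjusted p under 0.05, 5 were higher and 1 lower, against 12.7% and 10.9% of all tested genes. DESeq2 called 2 higher and 1 lower and limma-voom 0. The median log2 fold change was 0.35, and in 15 of the 26 both YAP5SA libraries lay above both control libraries, against 28.1% of all tested genes. Of 11 paralogs, 9 were tested, with 1 higher and 0 lower in edgeR. At an unadjusted p under 0.05, 3 were higher and 1 lower, against the same 12.7% and 10.9% of all tested genes. DESeq2 called 2 higher and 1 lower and limma-voom 1 higher and 0 lower. The paralog that rose was Tagln3, a transgelin gene known from neurons, with 4 and 3 counts in control and 68 and 52 in YAP5SA. Both control counts lay under the minimum count of the filter on low counts. Tagln3 therefore entered the test through its YAP5SA libraries alone, whose high counts the test then compared with control. Its summed counts were 11.4 times higher per scaled library (95% exact binomial counting interval 5.36 to 28.9). The log2 fold change with edgeR was 3.46 (SE 0.44, adjusted p = 0.0301), and its call was lost when either YAP5SA library was left out. Because of the way Tagln3 entered the test, these values are a description only.

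**Figure D4:**
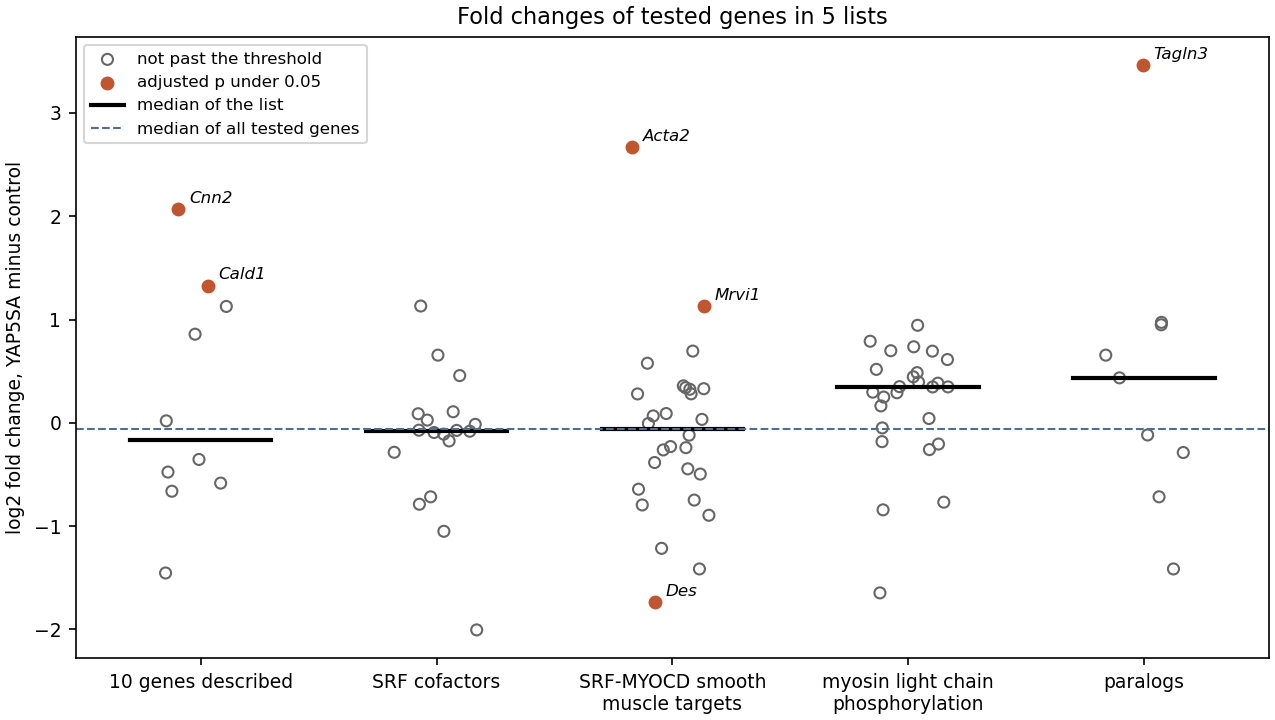
Log2 fold change (YAP5SA minus control, edgeR, linear axis) of each tested gene among the 10 genes described and in the lists of SRF cofactors, further smooth muscle targets, myosin light chain phosphorylation regulators and paralogs. Filled points passed the threshold and are named, black lines are list medians (-0.17, -0.08, -0.06, 0.35 and 0.44) and the dashed line is the median of all tested genes (-0.06).

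Several of these genes are also made by other cells of the heart, so markers of those cells were read in the same libraries. Of 12 smooth muscle and pericyte markers, none of them among the 10 genes, 11 were tested, 3 rose (Acta2, Mcam and Mrvi1) with edgeR, and 2 were lower at an unadjusted p under 0.05. Those 2 were Rgs5 (721 and 423 CPM in control, 270 and 244 in YAP5SA) and Notch3 (141 and 86.8 in control, 72.4 and 60.1 in YAP5SA). Of the 11 log2 fold changes 5 were above 0 and 6 below. Acta2, Actg2, Myh11, Lmod1, Itga8, Kcnmb1 and Mrvi1 were also in the list of further SRF and myocardin targets of smooth muscle. The rises of Acta2 and Mrvi1 are thus the same ones counted there. The summed level of the 12 markers was 1639.9 and 1388 CPM in control and 1701 and 1873 CPM in YAP5SA. Acta2 alone held 158 and 97.5 CPM of this in control and 712 and 917 CPM in YAP5SA. No marker was at 0, and the lowest count was 4, for Actg2. Myh11, the myosin heavy chain that defines smooth muscle, measured 32.2 and 36.0 CPM in control and 42.0 and 43.4 CPM in YAP5SA (log2 fold change 0.32, SE 0.16, adjusted p = 0.299). Of 12 macrophage markers 6 rose and 0 fell past the threshold, against 3.12% and 0.999% of all tested genes. The log2 fold change was above 0 for 11 of the 12 and below 0 for 1, with a median of 1.49. In 11 both YAP5SA libraries lay above both control libraries. The summed level of the 12 was 674 and 434 CPM in control and 1170.4 and 1371 CPM in YAP5SA, beside the rise of Cnn2. Of 12 fibroblast markers Lum and Thy1 rose and 0 fell past the threshold. The log2 fold change was above 0 for 6 of the 12 and below 0 for 6, with a median of -0.05. Both YAP5SA libraries lay above both control libraries in 6 and below them in 4, against 28.1% and 28.3% of all tested genes. The summed level of the fibroblast markers was 8189.6 and 6646 CPM in control and 6350.4 and 7931 CPM in YAP5SA. Of 12 endothelial markers Vwf and Robo4 fell and 0 rose past the threshold. The log2 fold change was below 0 for all 12, with a median of -0.79. In 10 of the 12 both YAP5SA libraries lay below both control libraries, against 28.3% of all tested genes. The sum of the 12 was 1985 and 1389 CPM in control and 1086 and 1039.9 CPM in YAP5SA. No macrophage, fibroblast or endothelial marker was at 0 in any library. The part of these cells in the levels of the 10 genes was not tested.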

How the data were processed

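Raw counts per gene symbol were deposited by the authors as whole numbers for 4 nuclear RNA-seq libraries, 2 control and 2 YAP5SA. RNA came from PCM1-selected nuclei, libraries were stranded and ribosomal RNA was removed, and reads were mapped to mm10 with STAR, per the labels' protocols. DESeq2 is named for the differential test in the submitters' processing notes. How reads were counted (program, strand setting, annotation) and all tool versions are not given in these sources. The ATAC-seq and 4C-seq samples were not analysed here.

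Genes kept by filterByExpr of edgeR 4.0.16 (R 4.3.3; minimum count 10) numbered 17715. Libraries were scaled by TMM and compared with the quasi-likelihood F test, with no replicate block, since the labels do not say that replicate numbers pair libraries. P-values were adjusted by Benjamini-Hochberg over all tested genes (threshold 0.05), and the SE was taken as the absolute log2 fold change over the square root of the F statistic. Nothing in the labels ties replicates to separate animals. The p-values therefore reflect the spread of these libraries alone, and that spread may be technical. A count of 0 allows up to 3 counts, 0.202 to 0.397 CPM, for counting error only. Alternatives were DESeq2 1.42.0, limma-voom (limma 3.58.1), other scalings and filters, a replicate block and each library left out. The fit was also run on simulated data with the same spread for all genes and both groups. There it called 63 of 100 genes changed 2-fold and 93 of 100 changed 4-fold, with 3 false calls. The real control pair was less alike than the YAP5SA pair, so these counts do not carry over to these data. Positions, exon lengths and overlaps come from GENCODE M21 (GRCm38, mm10) and sequences from RefSeq GRCm38.p6. The genes, lists and tests were chosen with earlier results of these data known. The rule for named genes took the 10 genes, from each list up to the 3 smallest adjusted p in each direction among genes past the threshold, and the 3 genes nearest in pattern to Cnn1 and to Myocd. Srf, Mkl1, Mkl2, the markers and the overlapping genes were named beyond it.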

Additional observations from a re-analysis of the deposited data

How the results depend on the processing

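The directions of Cnn1, Cnn2, Cnn3, Cald1, Tagln2, Smtn, Mylk, Synpo2 and Myocd were the same in all 11 alternatives. With the stricter filter the log2 fold change turned to -0.039 for Tagln and -0.030 for Srf. With single libraries left out it ran from -0.23 to 0.36 for Tagln and from -0.071 to 0.16 for Srf. Cnn2 kept its call in 7 of 7 alternatives that used all libraries and Cald1 in 6 of 7. Leaving out single libraries gave 0 to 4 higher and 0 to 4 lower of the 10 genes, 0 to 4 and 0 to 5 of the SRF cofactors, 0 to 12 and 0 to 14 of the further smooth muscle targets, 0 to 11 and 0 to 3 of the light chain regulators and 0 to 6 and 0 to 4 of the paralogs. Such fits take the spread of the remaining lone library from the other group, so their counts of calls are not compared here. With DESeq2 the 10 genes had 4 higher, the cofactors 1 higher and 1 lower, the further targets 3 higher and 4 lower, the light chain regulators 2 higher and 1 lower, and the paralogs 2 higher and 1 lower. That test called 5.22% of the 30546 genes with any count. With no filter the 10 genes had 4 higher and 1 lower (Cnn1), the cofactors 1 and 4, the further targets 3 and 6, the light chain regulators 4 and 3 and the paralogs 3 and 2. That fit called 11.2% of 30546 genes, against 4.12% of 17715 in the main fit. With the stricter filter (at least 50 counts in at least 2 libraries) 3 further targets fell, in a fit that called 5.3% of 12915 genes. With the replicate number as a block, 1 of the 10 genes rose (Cnn2; Cald1 had an adjusted p of 0.0609), 1 further target rose and 0 fell, and 321 genes rose and 112 fell in all, against 553 and 177. Same-numbered libraries did not deviate together (correlation of the replicate differences across genes -0.09), so the numbers were not taken as pairs. No scaling moved the median of all genes by over 0.1 on the log2 scale. Tagln3, with 7 counts in control, and Cnn1, with 40 to 87 counts a library, rest on few counts.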
